A study of Mus musculus with 6 samples.

Results

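Skeletal muscle fibres are not part of the intervertebral disc (IVD), but muscle lies against the spine, and the genes that build its contractile machinery can be counted in any tissue pool. The genes described here are 10 of the 43472 gene symbols counted in each library, chosen by name as genes of fast and slow skeletal muscle fibres. They are Acta1, Mylpf, Myh1, Myh4, Myh7, Tnnt3, Tnnt1, Atp2a1, Ckm and Ampd1. Their levels show which pools of IVDs held muscle RNA, of which fibre type, and whether it differed between mutant and control. RNA was sequenced from IVDs of the thoracic and lumbar spine of C57B6/J mice at postnatal day 20 (P20), with 3 libraries per group and each library made from a pool of 2 to 3 mice. The mutant group was Col2Cre; Adgrg6f/f, in which the Col2a1 promoter drives Cre recombinase in cartilage-forming cells and loxP sites flank part of Adgrg6, the gene of an adhesion G protein-coupled receptor that the files list as Gpr126. The control group was labelled wild type by genotype and Col2Cre control by title, and the study describes these mice as Cre (-) littermates. The labels name no treatment in either group, and they name the IVD as the only tissue.

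A muscle fibre shortens when myosin heads on the thick filament pull on actin thin filaments. Troponin on the thin filament lets this happen when calcium leaves the sarcoplasmic reticulum, and a calcium pump returns it. Mouse fibres are typed by the myosin heavy chain they carry: slow type I fibres carry Myh7, and fast type IIa, IIx and IIb fibres carry Myh2, Myh1 and Myh4, respectively. Fast and slow fibres also differ in their troponin T, with Tnnt3 in fast and Tnnt1 in slow fibres.

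The libraries held 9061491 to 12017008 counts on genes. The levels below are CPM (counts per 1000000 counts on genes), with library sizes scaled by the trimmed mean of M-values (TMM). Gpr126 was at 94.28 to 123.6 CPM in the controls and 105.8 to 137.9 CPM in the mutants (log2 fold change 0.17 ± 0.18 SE, edgeR adjusted p = 0.849). Counts were summed over the whole gene, so they do not measure the deleted part and check nothing about the labels. Among the genes read here, Col2a1, the main collagen of cartilage, had the highest level in every library, at 62708 to 124063 CPM. Control replicate 1 stood apart from the other 5 libraries in muscle genes. Of 16152 genes tested, 66 (0.409%) were more than 4-fold higher in it than in each of the other libraries, and 40 of these 66 were among the 60 genes made up by the 10 fibre genes and the 3 lists of fast fibre, slow fibre and sarcomere genes given further on (51 of the 60 were tested). The comparisons of the fibre genes between mutant and control are therefore given with and without this library.

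All 10 genes were highest in control replicate 1. The 10 genes together took 0.4264% of its gene counts, against 0.009315% to 0.01658% in the other libraries. Summed over the 10 genes, the level was 4348, 113.0 and 81.61 CPM for the controls (replicates 1 to 3) and 172.1, 162.6 and 151.0 CPM for the mutants. Control replicate 1 was thus 25.27-fold above the highest other library, and the other controls were the lowest pair. The share of all genes tested that were highest in control replicate 1 was 15.6%.

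**Figure D1:**
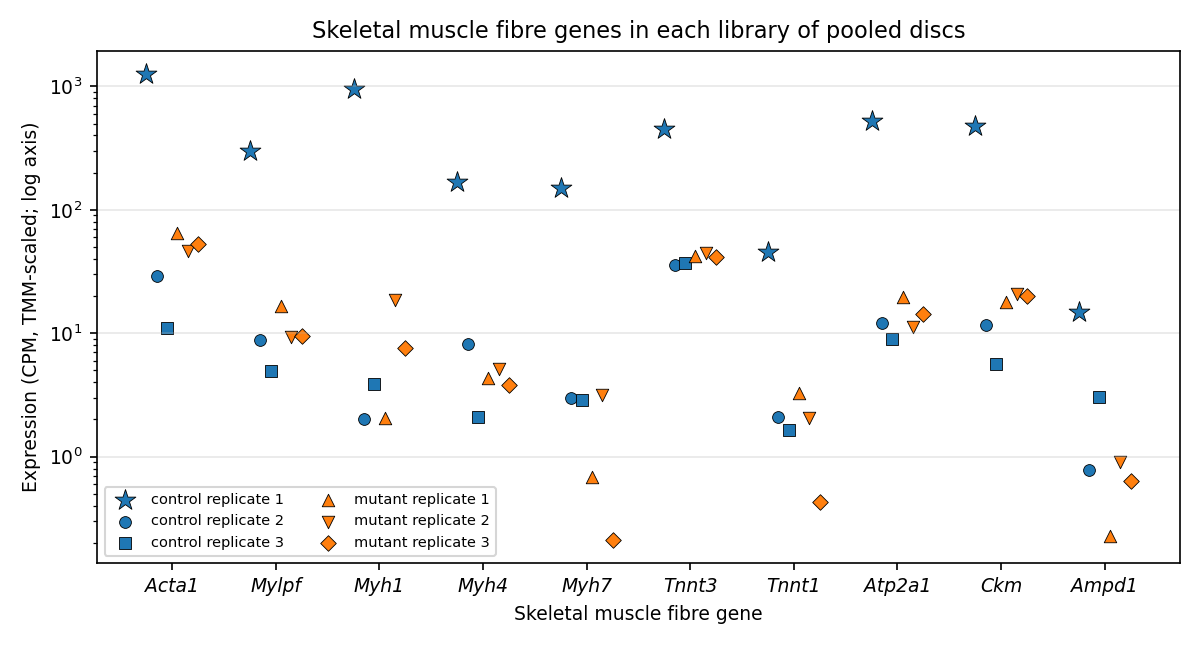
Level of each skeletal muscle fibre gene in each library, in TMM-scaled CPM on a log axis, with 1 point per library (controls blue, mutants orange). Control replicate 1 (star) is the highest point for all 10 genes, from 14.77 CPM for Ampd1 to 1260 CPM for Acta1, and the next library lies 4.844-fold (Ampd1) to 51.26-fold (Myh1) below it.

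Acta1 (chr8:123891769-123894751, minus strand, GRCm38), the actin of the skeletal muscle thin filament, had the highest level of the 10 genes per kb of exon in control replicate 1 and in the mutants, and was below Tnnt3 in control replicates 2 and 3. It stood at 1260, 29.09 and 11.1 CPM in control replicates 1 to 3 and at 65.44, 46.6 and 52.8 CPM in mutant replicates 1 to 3. Outside control replicate 1, each mutant library was above each control library. The coding sequence of Acta1 was 85.4% identical to that of the smooth muscle actin Acta2 and 86.3% to that of the cardiac actin Actc1, and it shared no stretch of 50 bases with either (0.0% of its 50-base words). Acta2 was at 105.1 to 308 CPM in all 6 libraries. Per kb of exon, which allows levels of different genes to be compared, Acta1 was at 820 RPKM (CPM divided by the exon length in kb) in control replicate 1 and 7.227 to 42.6 RPKM elsewhere.

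Mylpf (chr7:127208890-127214298, plus strand), the regulatory light chain of fast myosin, was at 301.1, 8.771 and 4.925 CPM in the controls and 16.62, 9.303 and 9.562 CPM in the mutants. The order of the libraries was the same as for Acta1 at its ends: control replicate 1 far above the rest, mutant replicate 1 next, and control replicate 3 lowest. Per kb of exon it followed Acta1 in control replicate 1, at 283.5 RPKM.

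Myh1, Myh4 and Myh7 are myosin heavy chains. Myh1 and Myh4 lie side by side with Myh2 in a cluster of fast myosins on chromosome 11 (Myh1 chr11:67200052-67224575 and Myh4 chr11:67238029-67260446, plus strand), and Myh7 lies on chromosome 14 (chr14:54970684-54994626, minus strand). Their coding sequences are near copies. Myh1 was 91.0% identical to Myh2, 90.2% to Myh4 and 77.2% to Myh7, and 20.5%, 11.0% and 0.2% of its 50-base words, respectively, were also found in those genes. Reads from such stretches cannot be assigned to 1 fast myosin, so the split among Myh1, Myh2 and Myh4 is less certain than the split between them and Myh7. The stretch of 60 bases within 1 exon in which Myh1 differed most from its nearest copy shows the differences by which reads were told apart. It lies in exon 29 of Myh1 (chr11:67217464-67217523), exon 29 of Myh2 (chr11:67191348-67191407), exon 28 of Myh4 (chr11:67254458-67254517) and exon 30 of Myh7 (chr14:54978642-54978701). Capitals mark bases unlike Myh1, of which Myh2 has 19, Myh4 18 and Myh7 21. All are written 5′ to 3′ along the gene.
Myh1: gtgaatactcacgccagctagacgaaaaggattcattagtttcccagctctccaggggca
Myh2: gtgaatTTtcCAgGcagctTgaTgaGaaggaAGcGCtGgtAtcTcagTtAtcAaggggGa
Myh4: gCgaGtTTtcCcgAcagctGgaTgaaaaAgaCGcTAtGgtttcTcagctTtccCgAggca
Myh7: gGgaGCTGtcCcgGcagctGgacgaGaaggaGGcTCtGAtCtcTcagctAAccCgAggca

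Myh1, the myosin of type IIx fibres, was at 958, 1.998 and 3.909 CPM in the controls and 2.048, 18.69 and 7.65 CPM in the mutants. It had the widest gap of the 10 genes, 51.26-fold between control replicate 1 and the next library, mutant replicate 2. Mutant replicate 1 lay between control replicates 2 and 3, so the groups overlapped also without control replicate 1. Myh4, the myosin of type IIb fibres, was at 167.3, 8.216 and 2.111 CPM in the controls and 4.325, 5.141 and 3.825 CPM in the mutants. Control replicates 2 and 3 were the highest and the lowest of the 5 libraries left after control replicate 1, and the mutants lay between them. Myh7, the myosin of type I fibres, was at 149.3, 2.998 and 2.892 CPM in the controls and 0.6828, 3.183 and 0.2125 CPM in the mutants. These levels outside control replicate 1 rest on few counts: 27 and 37 in the controls and 6, 39 and 2 in the mutants, and for Myh1 they rest on 18 to 229 counts.

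The 4 adult myosins were set against each other within each library, since a share within a library does not depend on scaling between libraries. The slow myosin Myh7 made up 9.394% of the adult myosin counts of control replicate 1 (95% exact binomial interval 8.929% to 9.875%, 14850 counts). It made up 20.0% in control replicate 2 (13.61% to 27.75%, 135 counts) and 24.03% in control replicate 3 (17.52% to 31.56%, 154 counts). In the mutants it made up 8.824% (3.307% to 18.22%, 68 counts), 10% (7.208% to 13.42%, 390 counts) and 1.681% (0.2042% to 5.939%, 119 counts). The 3 fast myosins together thus outnumbered Myh7 in all 6 libraries, and the intervals cover counting error only. The mean Myh7 share was 17.81% ± 7.56 (SD, n = 3) in controls and 6.835% ± 4.502 (SD, n = 3) in mutants. The groups overlapped, since control replicate 1 fell below mutant replicate 2, and they did not overlap without control replicate 1.

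Within the fast myosins the libraries differed more. Myh1 was the most counted myosin in control replicate 1 (60.28%), mutant replicate 2 (58.72%) and mutant replicate 3 (60.5%), and in control replicate 3 (32.47%, 95% interval 25.15% to 40.47%). Myh4 was the most counted in control replicate 2 (54.81%) and mutant replicate 1 (55.88%). Myh2, the myosin of type IIa fibres, made up 19.8%, 11.85% and 25.97% of the adult myosin counts in the controls and 8.824%, 15.13% and 7.563% in the mutants. The mean shares were 35.36% ± 23.61 (SD) in controls and 48.56% ± 19.15 in mutants for Myh1, and 27.62% ± 23.8 and 34.09% ± 20.14 for Myh4 (n = 3 each). Each group held a library led by Myh1 and a library led by Myh4, and the differences of these means were smaller than the SD of either group. For Myh2 the means were 19.21% ± 7.079 in controls and 10.51% ± 4.054 in mutants (SD, n = 3 each), a difference larger than either SD. For all 3 fast myosins the groups overlapped, with and without control replicate 1.

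**Figure D2:**
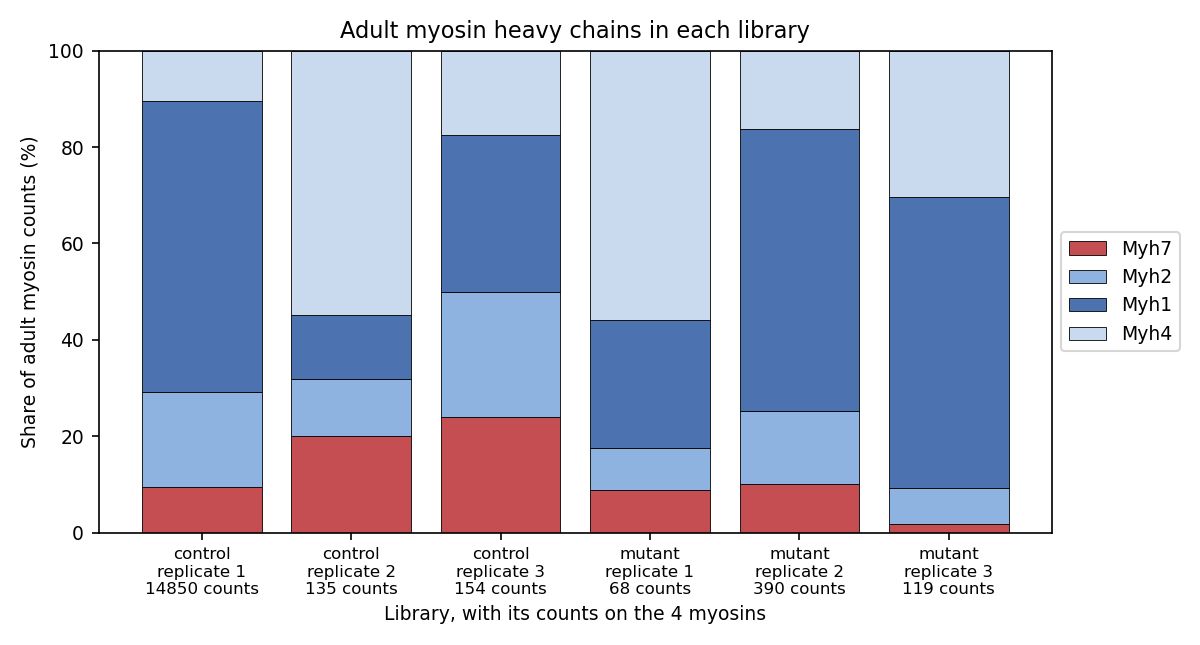
Share of each adult myosin heavy chain among the counts of Myh1, Myh2, Myh4 and Myh7 in each library (%), stacked to 100, with the number of counts under each bar. The slow myosin Myh7 (red) ranges from 1.681% in mutant replicate 3 to 24.03% in control replicate 3, and Myh4 leads in control replicate 2 and mutant replicate 1.

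Troponin T anchors the troponin complex to the thin filament. Its fast form, Tnnt3 (chr7:142498836-142516009, plus strand), was at 447.6, 35.42 and 37.37 CPM in the controls and 42.11, 44.88 and 41.54 CPM in the mutants. Outside control replicate 1 it varied the least of the 10 genes, at 7.913% to 10.03% of its level there, whereas Acta1 ranged from 0.8813% to 5.195% and Myh1 from 0.2086% to 1.951%. Tnnt3 made up 10.29% of the counts of the 10 genes in control replicate 1 and 24.47% to 45.79% in the other libraries. Per kb of exon, its 22.37 to 28.35 RPKM in the other 5 libraries were within the range of Acta1 there. Its slow form, Tnnt1 (chr7:4504570-4516382, minus strand), was at 45.59, 2.109 and 1.642 CPM in the controls and 3.3, 2.04 and 0.425 CPM in the mutants. Tnnt1 was 9.245%, 5.621% and 4.208% of the troponin T counts in the controls and 7.268%, 4.348% and 1.013% in the mutants. The means of 6.358% ± 2.598 and 4.21% ± 3.13 (SD, n = 3 each) differed by less than the SD of either group's libraries, and the groups overlapped with and without control replicate 1. The Tnnt1 share depends on Tnnt3, which outside control replicate 1 did not fall as far as Acta1 and Myh1. It is therefore a limited measure of fibre type in those libraries.

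Atp2a1 (chr7:126445858-126463108, minus strand), the calcium pump of the sarcoplasmic reticulum in fast fibres, was at 529, 12.1 and 8.99 CPM in the controls and 19.57, 11.18 and 14.34 CPM in the mutants. Control replicate 2 lay within the range of the mutants. Ckm (chr7:19404776-19422841, plus strand), the muscle creatine kinase that rebuilds ATP from phosphocreatine, was at 475.6, 11.55 and 5.628 CPM in the controls and 17.75, 20.65 and 19.97 CPM in the mutants. Here the mutants were close together and above control replicates 2 and 3. Ampd1 (chr3:103074014-103099720, plus strand), the muscle AMP deaminase, was at 14.77, 0.7772 and 3.049 CPM in the controls and 0.2276, 0.8977 and 0.6375 CPM in the mutants. It had the smallest gap of the 10 genes, 4.844-fold between control replicate 1 and control replicate 3, and rested on 2 to 39 counts outside control replicate 1.

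Several of these genes share their locus with a gene on the other strand, and the strand setting of the counting is not given in the sources used here, so reads from such partners cannot be told apart. A930016O22Rik, which shares 451 exon bases (15.5%) with Ckm, had 3097 counts in control replicate 1 and 32 to 159 in the others. Rabep2, which shares 763 bases (21.9%) with Atp2a1, had 3318 against 480 to 631 counts. Mhrt, which shares 484 bases (5.6%) with Myh7, had 553 against 0 to 20 counts, and 9430073C21Rik, which overlaps Myh2, had 685 against 0 to 16. Gm20388, which spans Acta1 with no shared exon base, had 24947 against 11860 to 15697 counts. These partners were thus highest in the same library as the muscle genes. Prr33, which spans part of Tnnt3 with no shared exon base, had 5335 counts in control replicate 1 and 2766 to 3980 in the others.

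With all 6 libraries, the question was whether the fibre genes differed between mutant and control IVDs. They were lower in the mutants by 2.02 (Tnnt3) to 5.13 (Myh7) on the log2 scale, and none passed the test after adjustment. In edgeR's quasi-likelihood test, 9 of the 10 genes were tested, Ampd1 having been removed by the filter on low counts. Their log2 fold changes were −2.98 for Acta1, −3.15 for Mylpf, −5.06 for Myh1, −3.72 for Myh4, −5.13 for Myh7, −2.02 for Tnnt3, −3.09 for Tnnt1, −3.61 for Atp2a1 and −3.07 for Ckm, with SE from 0.82 to 1.87. The median was −3.15, against −0.01 over all genes tested, and −0.508 with limma-voom with sample quality weights. At an unadjusted p under 0.05, 9 of 9 were lower and 0 higher, against 4.32% and 2.89% of all genes tested. After Benjamini-Hochberg adjustment over all 16152 genes, 0 of 9 passed (edgeR adjusted p = 0.676 to 0.691), and 1 gene in all was called, the protease gene Prss50, named after its value was seen (0.00619% lower, 0% higher). The call depended on the filter: with no filter on low counts, edgeR called 10 of 10 lower, and 245 genes in all. limma-voom called 0 of 9, with 0 at an unadjusted p under 0.05. DESeq2 gave a p-value for 1 of the 9, which was under 0.05 before adjustment and not after it. For all 10 genes the groups overlapped, where 5.96% of all genes were lower and 5.45% higher in each mutant than in each control, and the SD of the controls exceeded their mean. The means ± SD were 433.2 ± 715.7 CPM in controls and 54.95 ± 9.601 CPM in mutants for Acta1, and 321.3 ± 551.4 and 9.462 ± 8.466 CPM for Myh1 (n = 3 each).

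Without control replicate 1, the direction turned for 7 of the 9 genes tested. That library was set apart by these same muscle genes, which were highest in it. Leaving it out therefore favoured higher values in mutants, here and in the muscle lists further on. The p-values without it do not allow for this choice. Acta1 was 1.48 ± 0.353 (SE) higher in mutants on the log2 scale (edgeR adjusted p = 0.0968), Ckm 1.21 ± 0.32 (adjusted p = 0.115) and Myh1 1.69 ± 0.733 (adjusted p = 0.326), and these 3 were under 0.05 before adjustment. The other 4 with a positive value were Mylpf at 0.81 (edgeR adjusted p = 0.379), Atp2a1 at 0.53 (adjusted p = 0.484), Tnnt3 at 0.26 (adjusted p = 0.575) and Tnnt1 at 0.06 (adjusted p = 0.984). Myh4 at −0.18 (edgeR adjusted p = 0.923) and Myh7 at −1.05 (adjusted p = 0.640) had negative values. Thus 3 of 9 were higher and 0 lower at an unadjusted p under 0.05, against 5.25% and 8.89% of the 17164 genes tested in these 5 libraries, and 0 passed after adjustment in edgeR (0.0408% of all genes higher, 0.14% lower). DESeq2 on the same 5 libraries called 2, Acta1 (DESeq2 adjusted p = 0.00325) and Ckm (adjusted p = 0.03), among 589 genes called in all. limma-voom called 0 of the 9, and 51 genes in all. Both of these fits were added after the counts were seen. Acta1, Ckm, Tnnt3 and Mylpf (4 of 9) were higher in each mutant than in each control left, against 13.2% of all genes. The median of the 9 was 0.53, against 0.00 over all genes.

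**Figure D3:**
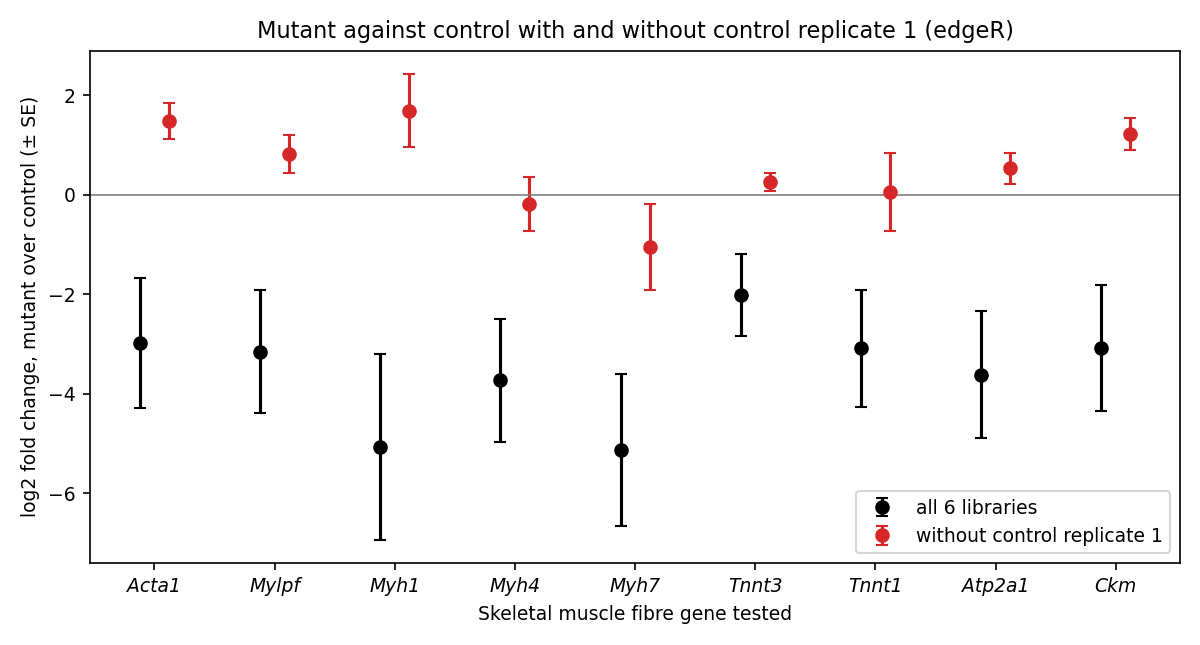
Log2 fold change of mutant over control for the 9 fibre genes tested by edgeR, with bars of 1 SE, over all 6 libraries (black) and without control replicate 1 (red). All 9 black points lie below 0, between −5.13 and −2.02, and 7 of the 9 red points lie above it.

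The other genes of the muscle fibre were followed through 4 lists of genes chosen by function. Among 14 other fast fibre genes, 13 were highest in control replicate 1 and 11 by more than 4-fold. The 4 with the highest mean level were Tnni2, Tnnc2, Myh2 and Eno3. Tnnc2, the calcium-binding subunit of fast troponin, was at 289.8 CPM in control replicate 1 and 2.58 to 14 CPM in the others. Myh2 was at 314.8 CPM against 0.6828 to 4.815 CPM. Eno3, the muscle enolase of glycolysis, was at 152.9 CPM against 25.38 to 30.6 CPM. Tnni2, the inhibitory subunit of fast troponin, stood out by its high level elsewhere, with 360.8 CPM in control replicate 1 and 117.2 to 159.5 CPM in the others. Tnni2 (chr7:142441808-142444410) and Tnnt3 lie close together on chromosome 7. Of the 12 genes tested, 6 were lower in mutants at an unadjusted p under 0.05 with all 6 libraries, where 4.32% of all genes were (median log2 fold change −2.05), and 0 were called after adjustment by edgeR. Without control replicate 1, 5 were higher at an unadjusted p, where 5.25% of all genes were (median 0.88), and 0 after adjustment. These 5, named after their values were seen, were Tnnc2, Myl1, Pvalb, Pygm and Pgam2.

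Among 12 other slow fibre genes, 11 were highest in control replicate 1, and 7 by more than 4-fold. Csrp3, a muscle LIM protein of the Z-disc, was at 43.67 CPM there and 0.2125 to 2.845 CPM in the others. The ankyrin repeat protein Ankrd2 was at 30.5 against 1.094 to 3.754 CPM. Myl3, the essential light chain of slow myosin, was at 26.54 against 0.8882 to 3.612 CPM, and Tnni1, the slow troponin I, at 26.11 against 0.2125 to 1.954 CPM. Of the 10 tested, 3 were lower in mutants at an unadjusted p with all 6 libraries (median −1.91), against 4.32% of all genes, and 1, Csrp3, was higher without control replicate 1 (median 0.19), against 5.25%. Without that library Csrp3 passed the filter on low counts only through mutant replicates 1 and 2, with 25 and 27 counts against 2 to 5 in the others, so its being tested there favoured a higher value in mutants. edgeR called 0 after adjustment in either set. The summed level of the slow list was 216.2 CPM in control replicate 1 and 19.86 to 23.58 CPM in the other libraries, and that of the fast list 2064 CPM against 194.7 to 251.7 CPM. Outside control replicate 1, Tnni2 was the largest part of the fast sum, at 117.2 to 159.5 CPM. The sums therefore do not compare how far each fibre type fell.

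Among 24 genes of the sarcomere and of excitation-contraction coupling, 22 were highest in control replicate 1 and 16 by more than 4-fold, while Myom1 had 0 counts in every library. The tropomyosin Tpm2 was at 321.9 CPM against 41.74 to 72.46 CPM, the intermediate filament desmin (Des) at 127 against 5.238 to 13.17 CPM, titin (Ttn) at 102 against 1.935 to 26.11 CPM and triadin (Trdn) at 76.41 against 2.504 to 35.34 CPM. Of the 20 tested, 11 were lower in mutants at an unadjusted p with all 6 libraries, against 4.32% of all genes (median −2.13), and 0 after adjustment by edgeR. Without control replicate 1, 0 passed either threshold (median 0.33). In 5 of the 20, Ryr1, Actn2, Neb, Tcap and Cav3, which were named after their values were seen, each mutant was below each control with all 6 libraries, where 5.96% of all genes were. Without control replicate 1 the share over all genes was 18.8% and the log2 fold changes of these 5 were −0.32, −0.81, −0.56, −0.62 and −0.91. Fewer muscle cells in a pool and less RNA of these genes per cell cannot be told apart in bulk libraries.

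The genes of developing fibres and of the neuromuscular junction were low. Of 11, 3 were highest in control replicate 1, and 5 were tested. Chrnb1, a subunit of the acetylcholine receptor, was at 9.632 CPM in control replicate 1 and 3.983 to 10.24 CPM in the others. Myl4, an embryonic light chain, was at 3.318 against 4.666 to 6.566 CPM, and the cardiac actin Actc1 was at 11.99 against 0.7772 to 1.935 CPM. The embryonic myosin Myh3 was at 6.849 CPM in control replicate 1, 0.8882 and 0.6254 CPM in the other controls and 0 to 0.2125 CPM in the mutants. Of the 5 tested, edgeR had 0 at an unadjusted p under 0.05 and 0 after adjustment, with all 6 libraries and without control replicate 1. Genes of muscle stem cells and myoblasts, of which 8 of 10 were in the files, summed to 6.314 CPM in control replicate 1 and 2.276 to 14.31 CPM in the others. Its members did not share 1 order of libraries. Of the 8, 3 were highest in control replicate 1: the myogenic factors Myf6, at 2.033 CPM there and 0 to 0.7035 CPM in the others, Myod1, at 1.712 against 0 to 0.1138 CPM, and Myog, at 0.214 against 0 to 0.1138 CPM. The stem cell factors Pax7 and Pax3 were at 0.107 and 0 CPM in control replicate 1, at 1.998 to 2.658 and 2.998 to 4.221 CPM in the other controls, and at 0.1062 to 0.5712 and 0 to 0.425 CPM in the mutants. Both passed the filter on low counts only without control replicate 1, and then only through the 2 controls in which they were high, so the filter favoured a lower value in mutants and no test of them is given. The other members of the list were Megf10, at 1.479 to 6.723 CPM, Myf5, at 0 to 0.3264 CPM, and Cdh15, at 0 counts throughout.

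**Figure D4:**
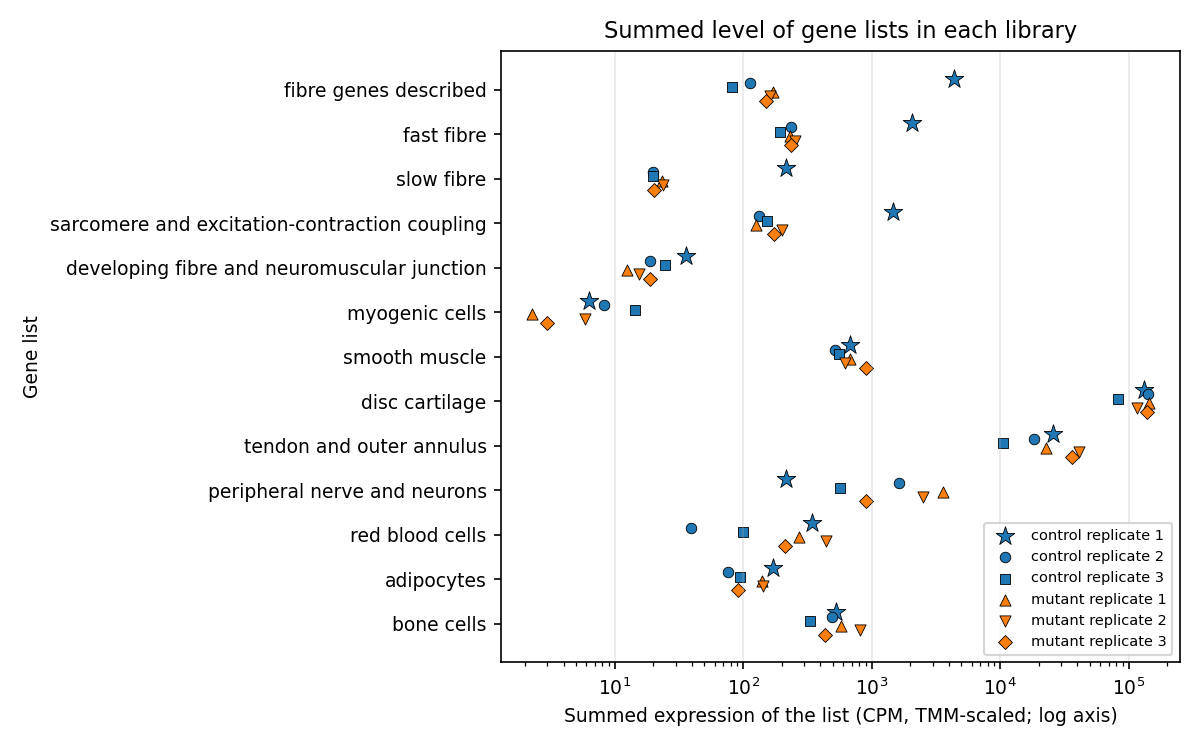
Summed level of each gene list in each library, in TMM-scaled CPM on a log axis, with 1 point per library. Control replicate 1 (star) lies far to the right of the other libraries in the 4 rows at the top and among them in most other lists, and it is the lowest point for peripheral nerve.

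Other tissues in the pools also moved between libraries. The red blood cell list summed to 340.9, 39.19 and 98.89 CPM in control replicates 1 to 3 and 272.3, 441.9 and 212.3 CPM in the mutants, so without control replicate 1 its 6 genes were higher in each mutant than in each control, as were Acta1 and Ckm, against 13.2% of all genes. With all 6 libraries this held for 1 of the 6, against 5.45%. The tendon and outer annulus list summed to 25975, 18510 and 10626 CPM in the controls and 22936, 40965 and 36589 CPM in the mutants. Most of this sum was Col1a1, at 3879 to 20231 CPM, and Col1a2, at 3857 to 16184 CPM. Of the 8 genes of the list, 2 were higher in each mutant than in each control with all 6 libraries, against 5.45% of all genes. Without control replicate 1 this held for 4, against 13.2%. The peripheral nerve list was lowest in control replicate 1, at 216.5 CPM against 572.5 to 3579 CPM. The smooth muscle list, whose actin and myosin are other genes, was at 682.7 CPM in control replicate 1, inside the range of 516 to 897 CPM of the others. The part of these tissues in the differences of the fibre genes was not tested.

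The genes whose levels followed the 10 fibre genes most closely were ranked by Pearson's r over the 6 libraries between log2(CPM + 0.1) of a gene and the mean of the 10, among 12223 genes with a mean of 5 CPM or more. The top 10 included Pdlim3, Mb, Eno3, Thrsp, Actn3, Ldb3, Srl, Mlxipl and Eif4a1, with r from 0.9807 to 0.9996, and 5 of these are in the lists above. Myoglobin (Mb), the oxygen store of muscle, was at 88.08 CPM in control replicate 1 and 2.736 to 4.978 CPM in the others, and the actin crosslinker Actn3 at 150.2 against 1.912 to 6.202 CPM. All 6 points share the one high library, so that r mainly reflects control replicate 1, and the size of the gap ranged from 24.21-fold for Actn3 to 1.052-fold for the translation factor Eif4a1.

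Because the 10 genes were all highest in control replicate 1, the sequence before their start sites was read from RefSeq (GRCm38.p6), which held 8 of the 10 (Tnnt3 and Ampd1 were not matched). Within 120 bases before the start, both strands were searched for 5 motifs: CANNTG, the E-box bound by myogenic factors, TATAAA, the MEF2 consensus, the CArG box bound by serum response factor, and CATTCC, bound by Tead factors. CANNTG was in 4 of the 8 genes and in 40.2% of 32851 windows of that length, and TATAAA in 4 of 8 and 6.3%. The CArG box was in 2 of 8 and 0.7%, CATTCC in 2 of 8 and 5.8%, and the MEF2 consensus in 0 of 8 and 1.3%. The 2 windows with a CArG box are shown, Acta1 (chr8:123894776-123894895, minus strand) and Myh4 (chr11:67237692-67237811, plus strand), with the motifs found in capitals. A match is a run of letters and not a measured site.
Acta1: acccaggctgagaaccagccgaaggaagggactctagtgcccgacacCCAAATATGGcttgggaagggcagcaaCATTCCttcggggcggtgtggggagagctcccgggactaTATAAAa
Myh4: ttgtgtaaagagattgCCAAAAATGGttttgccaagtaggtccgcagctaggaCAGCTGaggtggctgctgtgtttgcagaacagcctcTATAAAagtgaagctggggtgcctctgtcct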

How the data were processed

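RNA of 6 pools of IVDs was sequenced after poly(A) selection. The authors deposited 1 file of raw counts per gene symbol for each library. The methods of the study name Cutadapt, FastQC and HISAT2 (GRCm38.88), and StringTie and Ballgown for FPKM, while the submitters' processing notes name STAR 2.5.3a, HTSeq and DESeq2. The strand setting is not given in the sources used here. Another deposited table holds the authors' comparison for a subset of genes (size-factor-scaled counts, log2 fold changes, p-values) and was not used. Closing rows of the count files that name no gene held 55.84% to 59.56% of reads and were left out.

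Counts were tested with edgeR 4.0.16 (quasi-likelihood, TMM, filterByExpr with a count minimum of 10, Benjamini-Hochberg over all genes, threshold 0.05) in R 4.3.3, without covariates. The groups came from the sample titles. Exact binomial intervals of 95% cover counting error only. Exon lengths and positions came from GENCODE M21 (GRCm38), which held 39544 of the 43472 symbols (91.0%). DESeq2 1.42.0, limma-voom with sample quality weights (limma 3.58.1), other scalings, no filter, a replicate block and leaving out each library were tried, and the scripts were tested on simulated data. Separate pools make the replicates, so p-values measure the spread between pools. The genes and lists were chosen with earlier results of these data known. Genes named were the 10 fibre genes, the targeted gene, the 4 genes with the highest mean CPM of a list, any list gene with an adjusted p under 0.05 and the 10 genes most like the fibre genes, and 1 of the last is not reported here. Some genes that share a locus with a fibre gene, and all genes of the myogenic list, were named as well, and other exceptions are marked in the text.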

Additional observations from a re-analysis of the deposited data

How the results depend on the processing

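Of the settings tried, those without control replicate 1 turned the direction of the median, and with all 6 libraries limma-voom moved it from −3.152 to −0.508. Without it, the median log2 fold change of the 9 fibre genes went from −3.152 to 0.532 in edgeR, and to 0.533 with DESeq2, 0.541 with limma-voom and 0.532 with median-of-ratios (RLE) scaling, the last 3 settings having been added after the counts were seen. Gene by gene, in the order edgeR, DESeq2, limma-voom and RLE, Acta1 was then at 1.482, 1.479, 1.711 and 1.484, Ckm at 1.214, 1.216, 1.372 and 1.218, Myh1 at 1.691, 1.706, 1.215 and 1.699, Tnnt3 at 0.256, 0.259, 0.241 and 0.258, Mylpf at 0.814, 0.815, 0.83 and 0.815 and Atp2a1 at 0.532, 0.533, 0.541 and 0.532. Tnnt1 was at 0.058, 0.057, −0.626 and 0.057, Myh7 at −1.046, −1.062, −2.133 and −1.038, and Myh4 turned in limma-voom (0.213). On leaving out 1 library at a time, the lowest values were −3.771 for the median, −3.541 for Acta1, −3.63 for Ckm, −6.037 for Myh1, −3.643 for Tnnt1, −2.496 for Tnnt3, −3.706 for Mylpf, −4.164 for Atp2a1 and −6.828 for Myh7, and the highest were those without control replicate 1. Myh7 was below 0 in all settings run. With all 6 libraries, limma-voom with sample quality weights turned Acta1 alone (0.16, adjusted p = 0.974).

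The count of fibre genes called was 10 with no filter on low counts, where all 10 were lower and 245 genes in all were called (2276 at an unadjusted p), 2 with DESeq2 without control replicate 1 and 0 otherwise. Over all genes, 1 was called in the reported fit, 0 with the replicate block, 58 with DESeq2, 0 with limma-voom, 0 to 31 on leaving out 1 library (31 without control replicate 1), and without control replicate 1 589 with DESeq2, 51 with limma-voom and 29 with RLE. At an unadjusted p the 1164 genes became 618 without control replicate 3 and 2427 without control replicate 1 (2314, 2850 and 2436 with DESeq2, limma-voom and RLE). The 9 fibre genes lower at an unadjusted p became 2 with the replicate block, 1 with DESeq2, 0 with limma-voom and 0 to 10 on leaving out 1 library. With all 6 libraries DESeq2 gave no p-value for 8 of the 9, so its counts of 1 lower and 0 called rest on 1 gene. Without control replicate 1, the fibre genes lower at an unadjusted p were 0 with DESeq2, 1 with limma-voom and 0 with RLE. None was higher in the reported fit, against 0 to 3 on leaving out 1 library (3 without control replicate 1, and 3 there with each of these tools). Without mutant replicates 1, 2 and 3 in turn, 5, 4 and 3 were lower. The cause was not tested. Library totals alone moved the median of all genes to −0.128, and the fibre genes stayed between −5.14 and −2.06.

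Deviations from the group mean correlated at 0.159, −0.132 and 0.101 for same-numbered samples and at −0.265 to 0.179 for the others. These few values show no clear pairing by replicate number and cannot exclude it. With the replicate block the fibre genes ranged from −3.602 to −0.092 (median −0.976), and none was called. The Myh7 share differed by −10.972 percentage points between groups (−15.178 to −7.862 on leaving out 1 library), and the Tnnt1 share by −2.149 (−3.678 to −0.55). Outside control replicate 1, Myh7, Tnnt1 and Ampd1 rest on 2 to 39 counts, which limits their precision.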

Other observations

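Genes of neighbouring tissues were also read in the 5 libraries other than control replicate 1. Thbs4, a thrombospondin of tendon, was at 72.72 and 62.93 CPM in control replicates 2 and 3 and 148.3, 200.3 and 180.3 CPM in the mutants (log2 fold change 1.40, edgeR adjusted p = 0.0389). It stood at 113.4 CPM in control replicate 1, and with all 6 libraries each mutant was still above each control (1.09, edgeR adjusted p = 0.553). Hba-a1, an alpha globin of red blood cells, was at 129.1, 13.88 and 42.92 CPM in the controls and 105.7, 182.1 and 88.71 CPM in the mutants. Its log2 fold change was 1.02 with all 6 libraries (edgeR adjusted p = 0.749) and 2.16 without control replicate 1 (adjusted p = 0.076), where each mutant was above each control. Mbp, a myelin gene of nerve, was at 168.1, 1509 and 439.5 CPM in the controls and 3317, 2274 and 754.5 CPM in the mutants. Its log2 fold change was 1.58 with all 6 libraries (edgeR adjusted p = 0.691) and 1.14 without control replicate 1 (adjusted p = 0.446), and the groups overlapped in both. In control replicate 1 the adipocyte list was the highest, at 169.8 CPM against 75.61 to 142.1 CPM, and the bone cell list was at 532.4 CPM, inside the range of 328.6 to 816.1 CPM of the other libraries.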
